A study of Homo sapiens with 12 samples.

Results

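The feedback inhibitors of MAPK signalling described here are 10 genes, namely DUSP1, DUSP2, DUSP4, DUSP5, DUSP6, DUSP10, DUSP16, SPRED1, SPRED2 and SPRY1. They were found in the count table by the Ensembl identifier that GENCODE 29 pairs with each symbol, and all 10 were present among its 58884 genes. The counts come from 12 RNA-seq libraries of U2932 and TMD8, 2 established DLBCL (diffuse large B-cell lymphoma) cell lines whose genotype is labelled WT. Cells of each line were treated for 4 h with 20 µg/mL of rituximab (R), of ofatumumab (OF) or of a human IgG1 isotype control. R and OF are antibodies against CD20, a B-cell surface protein encoded by MS4A1, and no untreated cells are among the groups. Each of the 6 conditions had 2 libraries, one from each of 2 cultures into which a line had been split a week before treatment, so the replicates show the spread between cultures of 1 line.

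MAPK cascades pass signals from RAS through the kinases RAF, MEK and ERK, and parallel cascades end in the stress kinases JNK and p38. DUSP proteins are dual-specificity phosphatases, many of which switch a MAPK off by removing the phosphates from its activation loop. SPRED and SPRY proteins act higher up, where they dampen the step from RAS to RAF. Many of these genes are themselves induced by ERK or by stress kinases, which makes a negative feedback loop. In B cells they are known as part of the early transcriptional response to receptor engagement.

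The 12 libraries held 15440226 to 27110612 counts. All 7 B-cell markers examined were detected in every library, MS4A1 at 856 to 2348 CPM (counts scaled to a common library size). The T-cell and the monocyte or macrophage markers reached at most 1.67 CPM (CD4). CD8A was detected in all 12 libraries, at 0.124 to 0.940 CPM, and CD14 and CSF1R in all but 1, while CD3G, HBB and HBA1 were at 0 throughout. The summed CPM of the 7 B-cell markers moved with treatment, from 1984 and 1987 under isotype to between 2924 and 3116 under R and OF in U2932, and from 2458 and 2486 to between 3186 and 3662 in TMD8. Ribosomal protein transcripts took 4.44% and 4.74% of the counts under isotype and 6.03% to 6.56% under the anti-CD20 antibodies in U2932. Among the TMD8 libraries, replicate 2 of OF and replicate 2 of isotype stood apart, with ribosomal protein shares of 7.16% and 6.50% against 10.0% to 10.8% in the other 4 TMD8 libraries, and mitochondrial shares of 3.73% and 3.99% against 5.70% to 6.23%. Comparisons that use TMD8 libraries are therefore also given without these 2. The part of these differences in the results was not tested.

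CPM values below were scaled by TMM over the 12 libraries. The tests are edgeR's quasi-likelihood test, with Benjamini-Hochberg adjustment over all genes tested in the 6 libraries of a line, and a gene was called at an adjusted p under 0.1 where it also moved 1.5-fold or more. The main fits did not pair the libraries of the same culture. A fit that added a term for the replicate number is called the replicate block. The error of a log2 fold change is its SE, and that of a level is the SD. A statement that 2 conditions did not overlap describes their libraries only. With 2 libraries against 2 this often happens without a difference, and its share over all genes was not counted. The filter on low counts left 9 of the 10 members in U2932 and 8 in TMD8. DUSP6, an ERK phosphatase, had 0 to 13 counts per library and was tested in neither line, and SPRY1 had 0 to 3 counts per library in TMD8.

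Upstream sequence was available for 8 of the 10 members in the RefSeq promoter table of GRCh38.p14, which holds 35116 entries. DUSP1, DUSP16 and DUSP2 are shown because they were called with both anti-CD20 antibodies in U2932, the first 2 lower and the third higher, and have a single entry each. DUSP10 was called lower with both as well, but has 2 entries and is not shown. Each run gives the 250 bases before the RefSeq start, 5′ to 3′ in the direction of the gene, all on the minus strand, and capitals mark a cAMP response element (TGACGTCA) or an E-box (CACGTG), both palindromes. The windows are chr5:172771196-172771445 for DUSP1, chr12:12562864-12563113 for DUSP16 and chr2:96145441-96145690 for DUSP2.
DUSP1: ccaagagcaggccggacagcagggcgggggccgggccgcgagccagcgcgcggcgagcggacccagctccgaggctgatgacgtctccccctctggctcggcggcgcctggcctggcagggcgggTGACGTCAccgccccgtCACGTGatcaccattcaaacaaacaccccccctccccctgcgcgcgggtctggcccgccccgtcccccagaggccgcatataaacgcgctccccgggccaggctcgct
DUSP16: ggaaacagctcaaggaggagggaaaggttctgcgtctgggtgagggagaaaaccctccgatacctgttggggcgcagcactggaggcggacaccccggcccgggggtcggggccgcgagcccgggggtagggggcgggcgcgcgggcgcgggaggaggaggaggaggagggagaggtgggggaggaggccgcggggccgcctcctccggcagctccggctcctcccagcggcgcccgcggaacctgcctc
DUSP2: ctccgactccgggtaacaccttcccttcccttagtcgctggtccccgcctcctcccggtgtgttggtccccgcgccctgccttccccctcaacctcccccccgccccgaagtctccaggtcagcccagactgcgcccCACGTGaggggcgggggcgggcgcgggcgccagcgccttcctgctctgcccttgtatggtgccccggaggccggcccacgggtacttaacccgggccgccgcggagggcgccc
The response element was found in DUSP1 alone among the 8 members and in 1.65% of all 250-base windows. The E-box was found in DUSP1 and DUSP2 and in 6.35% of all windows. The GC box GGGCGG, on either strand, occurred 4 times upstream of DUSP1, 3 times upstream of DUSP2 and 1 time upstream of DUSP16, and in 42.6% of all windows. The AP-1 motif TGANTCA and the ETS motif CCGGAAGT were in none of the 11 windows of the 8 members, against 6.57% and 3.42% of all windows. The GC content of the windows was 74.4% for DUSP1, 74.8% for DUSP16 and 74.0% for DUSP2, with a median of 58.0% over all entries. In GENCODE 29 an exon of the lincRNA AC012307.1 lies within the DUSP2 window, and no exon lies in the other two.

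Per length, the members spanned a wide range. DUSP2 led in U2932, at 37.1 ± 6.06 RPKM under isotype, 60.8 ± 5.19 under R and 62.3 ± 1.7 under OF (SD, n = 2). DUSP5 led in TMD8, at 38.9 ± 1.14, 72.0 ± 10.5 and 82.6 ± 6.04 RPKM, followed by DUSP2 at 22.3 ± 3.22, 38.3 ± 4.54 and 57.3 ± 3.08 RPKM (SD, n = 2). The other 8 members stayed under 10 RPKM on average in all conditions, and DUSP5 averaged 3.66 to 4.58 RPKM in U2932. In TMD8 under isotype, the means of SPRED2 (1.47 RPKM), DUSP4 (1.44), DUSP1 (1.22), SPRED1 (1.17) and DUSP10 (1.11) were each less than 1 SD of the less precise neighbour apart.

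**Figure D1:**
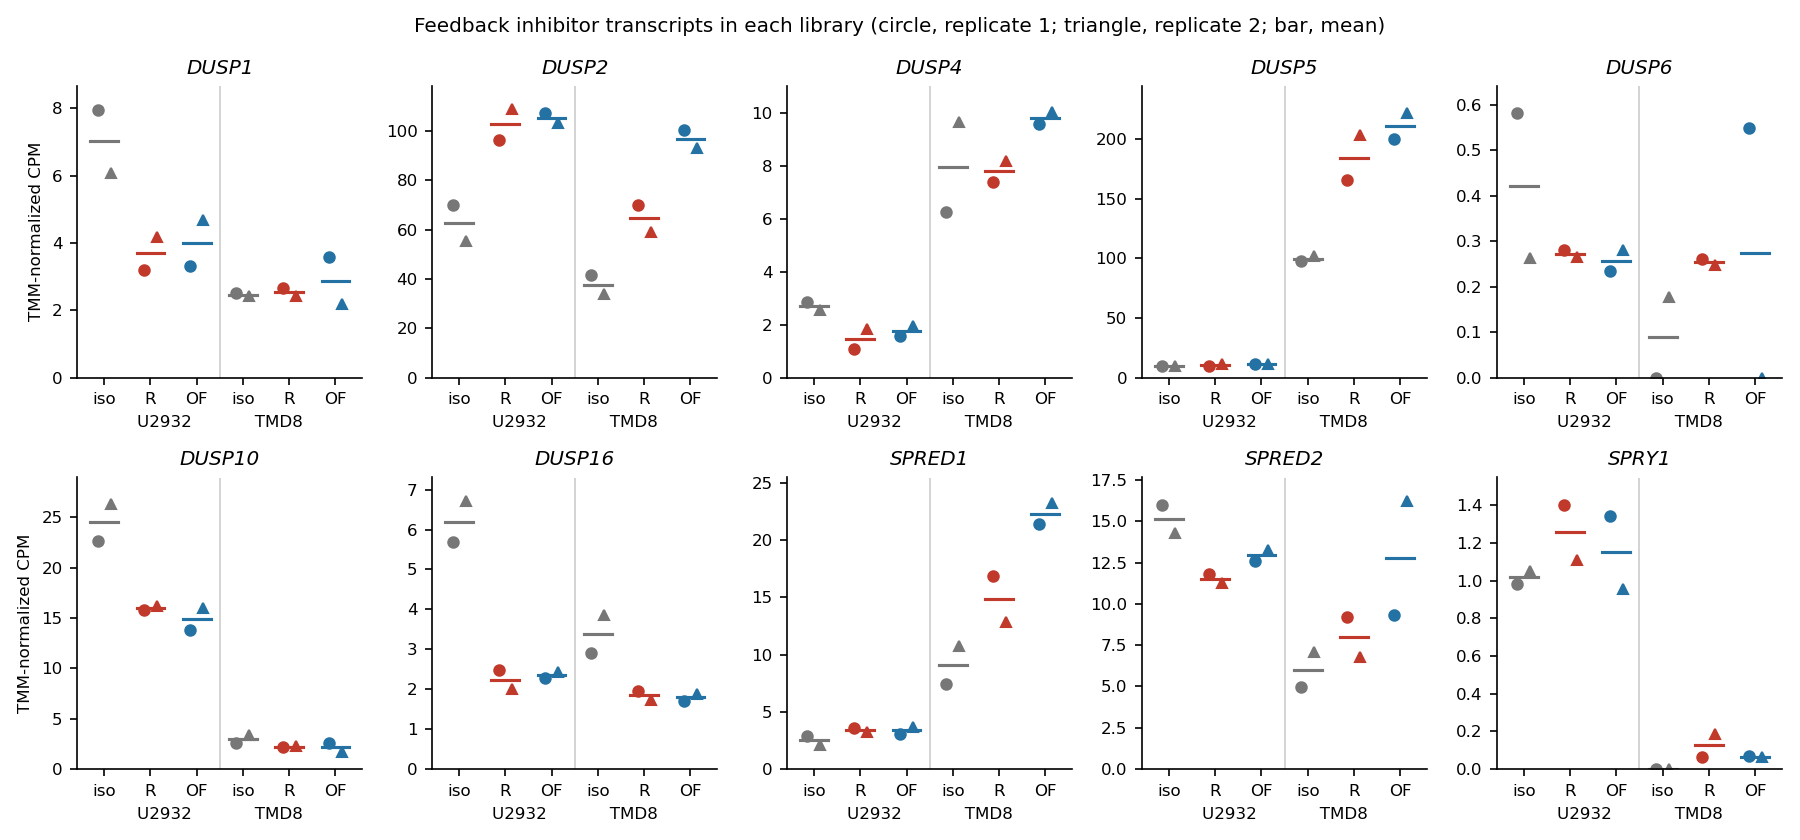
TMM-normalized CPM of each member in the 12 libraries, on a linear axis from 0 with its own scale per gene; circles are replicate 1, triangles replicate 2 and bars the mean of 2. DUSP1 and DUSP16 sat lower with R and OF than with isotype in U2932 and DUSP2 sat higher, while DUSP5 ran from 97.3 to 222 CPM in TMD8 and stayed between 9.35 and 11.8 CPM in U2932.

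The first comparison asked how R changed these genes in U2932. Of the 9 members tested, 4 fell (DUSP1, DUSP4, DUSP10 and DUSP16) and 1 rose (DUSP2). Among all 14635 genes tested, 10.2% were called, 5.19% as higher and 5.02% as lower. The median log2 fold change was −0.39 over the 9 members and −0.02 over all genes.

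DUSP16, a phosphatase that acts on JNK and p38 and is encoded on chromosome 12 (12474210 to 12562383, minus strand, GRCh38), stood at 5.68 and 6.71 CPM under isotype in U2932. It was at 2.47 and 2.01 CPM under R and at 2.28 and 2.42 CPM under OF. All 4 anti-CD20 libraries lay below both isotype libraries. DUSP16 fell by 1.47 ± 0.22 on the log2 scale with R and by 1.39 ± 0.22 with OF, or 2.77-fold and 2.62-fold (adjusted p = 1.2e-05 and 2.5e-05, respectively). R and OF were compared with the same 2 isotype libraries, here and below, so their values stand side by side and are not independent.

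DUSP1, a nuclear phosphatase of all 3 MAPK classes and an immediate early gene, is on chromosome 5 (172768090 to 172771195, minus strand). It was at 7.97 and 6.09 CPM under isotype in U2932, at 3.20 and 4.18 CPM under R, and at 3.33 and 4.67 CPM under OF. No anti-CD20 library reached the lower isotype library. DUSP1 fell by 0.92 ± 0.21 on the log2 scale with R and by 0.80 ± 0.21 with OF (adjusted p = 0.00143 and 0.00434, respectively). Without OF replicate 1 the OF value of DUSP1 was −0.58 (adjusted p = 0.0871), just under 1.5-fold.

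DUSP10, which prefers p38 and JNK, is on chromosome 1 (221701424 to 221742176, minus strand). Its isotype libraries in U2932 were at 22.6 and 26.3 CPM, the R libraries at 15.8 and 16.2 CPM and the OF libraries at 13.8 and 16.0 CPM. Again the groups did not overlap. It fell by 0.62 ± 0.12 on the log2 scale with R and by 0.71 ± 0.12 with OF (adjusted p = 0.000383 and 9.2e-05, respectively). Without isotype replicate 2 the change with R was −0.51 (adjusted p = 0.00522), which is under 1.5-fold.

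DUSP4, an inducible nuclear phosphatase, had few counts in U2932, between 19 and 64 per library. It was at 2.86 and 2.54 CPM under isotype, 1.07 and 1.85 CPM under R and 1.58 and 1.97 CPM under OF. The isotype libraries were the 2 highest of the 6. The log2 fold change of DUSP4 with R was −0.88 ± 0.29 (adjusted p = 0.0260), and this call was lost with DESeq2 (adjusted p = 0.111), without R replicate 1 (0.271) and without isotype replicate 1 (0.104). With OF it was −0.60 ± 0.29 and not called (adjusted p = 0.119), but the fit with the replicate block called it (adjusted p = 0.0948), as did the fit without R replicate 1 (adjusted p = 0.0977) and those with library size only, with 10 counts in every library, with no filter and with the GC correction, with or without the block (adjusted p = 0.0776 to 0.0966).

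DUSP2, a nuclear phosphatase found mainly in immune cells, was the member that rose. It lies on chromosome 2 (96143166 to 96145440, minus strand) and was at 69.8 and 55.4 CPM under isotype in U2932. The R libraries were at 96.4 and 109 CPM and the OF libraries at 107 and 103 CPM, all above the isotype libraries. DUSP2 rose by 0.71 ± 0.10 on the log2 scale with R and by 0.75 ± 0.11 with OF, or 1.64-fold and 1.69-fold (adjusted p = 1.2e-05 and 6.3e-06, respectively). Its transcript has the highest GC content of the members, 63.9%, and genes of the highest GC decile had a median log2 fold change 0.32 above that of the lowest decile with OF. With a correction for GC content the OF value of DUSP2 was 0.56 (adjusted p = 8.0e-06), under 1.5-fold, and without isotype replicate 2 the R value was 0.55 (adjusted p = 0.000216).

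With OF in U2932, then, 3 members fell and 1 rose. Among all genes tested 11.1% were called, 5.90% as higher and 5.21% as lower. The median log2 fold change was −0.22 over the members and 0.01 over all genes. With library size as the only scaling, the median of all genes moved to −0.12 with R and −0.07 with OF, and the split of all calls moved from 760 higher and 734 lower to 480 and 1186 with R, and from 863 and 762 to 571 and 1055 with OF. Under that scaling DUSP2 was still called higher and DUSP1, DUSP10 and DUSP16 lower with both antibodies. The rise of the B-cell marker sum and of the ribosomal protein share given above ran along with these changes, and their part in them was not tested.

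The remaining members of U2932 were not called. SPRED2, which with SPRED1 restrains RAF activation, was at 16.0 and 14.3 CPM under isotype, 11.8 and 11.3 CPM under R and 12.6 and 13.3 CPM under OF. Its log2 fold change with R was −0.39 ± 0.13 (adjusted p = 0.0253), under the 1.5-fold limit, and with OF −0.22 ± 0.13 (adjusted p = 0.212). SPRED1, which brings neurofibromin to RAS, was at 2.91 and 2.15 CPM under isotype, 3.59 and 3.28 CPM under R and 3.09 and 3.71 CPM under OF. Its log2 fold change was 0.44 ± 0.24 with each antibody (adjusted p = 0.175 with R and 0.179 with OF), and without isotype replicate 1 SPRED1 was called with both, at 0.67 and 0.66 (adjusted p = 0.0819 and 0.0815). DUSP5, a nuclear ERK phosphatase, was at 9.35 and 9.38 CPM under isotype, and its log2 fold change was 0.14 ± 0.14 with R and 0.33 ± 0.14 with OF (adjusted p = 0.514 and 0.0814, respectively), the latter under 1.5-fold. SPRY1, a Sprouty inhibitor of receptor kinase signalling, was at 0.956 to 1.40 CPM over the 6 libraries, with log2 fold changes of 0.30 ± 0.37 and 0.18 ± 0.37 (adjusted p = 0.593 and 0.770).

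**Figure D2:**
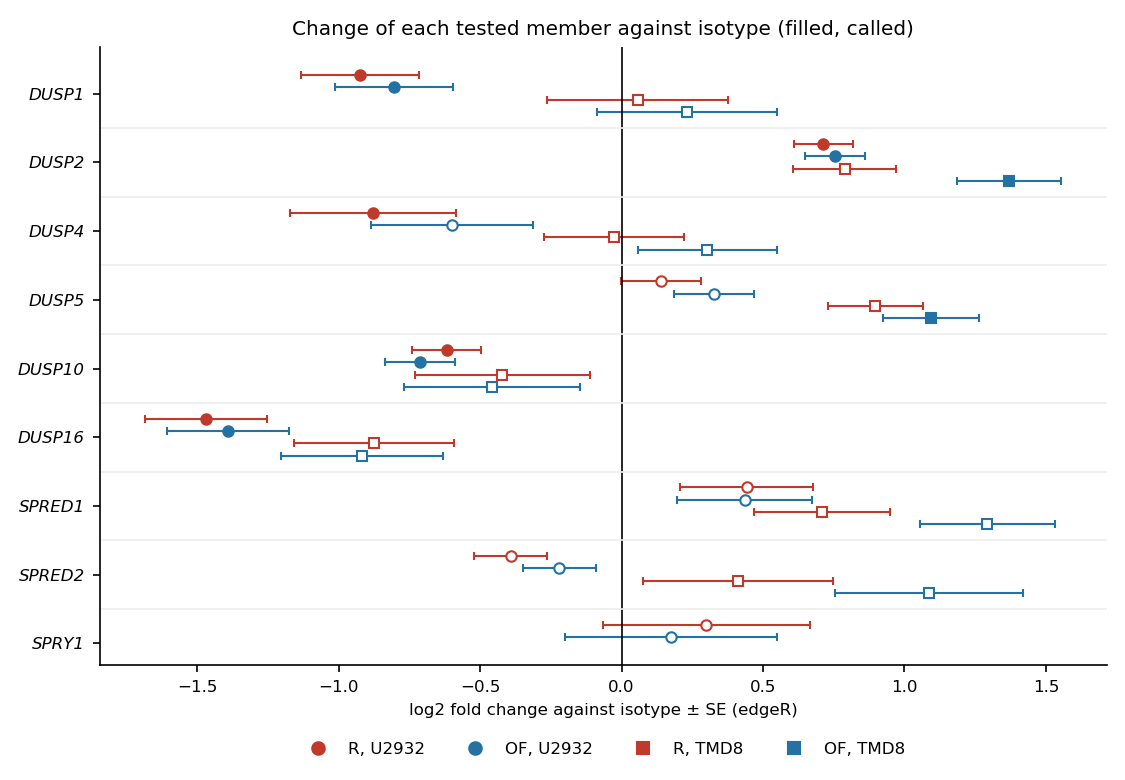
Log2 fold change against isotype for the tested members with R (red) and OF (blue) in U2932 (circles) and TMD8 (squares); bars are SE from edgeR and filled symbols are called. DUSP16 fell by 1.47 with R in U2932 and DUSP2 rose by 1.37 with OF in TMD8, and open symbols were not called.

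In TMD8 the OF and isotype replicates lay further apart, with a chi-square per degree of freedom of 62.2 and 106 against at most 10.8 in the other 4 conditions, and fewer genes passed the test. In the main fit, without pairing of cultures, R gave no called member among 8 tested, against 0.647% of 14227 genes. OF gave 2 members called higher, DUSP2 and DUSP5, against 0.815% of all genes called and 0.471% called higher. The median log2 fold change of the members was 0.23 with R and 0.69 with OF, where all genes had medians of −0.02 and −0.01. By edgeR without adjustment, 4 of the 8 members had a p under 0.05 with R and 5 with OF, against 15.9% and 14.1% of all genes. DESeq2 called 2 members with R and 4 with OF, all higher, against 4.93% and 4.15% of all genes. The replicate block gave 4 called members with R and 5 with OF, against 11.0% and 9.75% of all genes.

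DUSP5 was the most abundant member in TMD8 (chromosome 10, 110497838 to 110511544, plus strand). It was at 97.3 and 101 CPM under isotype, 165 and 203 CPM under R and 200 and 222 CPM under OF. The 4 anti-CD20 libraries were all above the isotype libraries. The log2 fold change was 1.09 ± 0.17 with OF and 0.90 ± 0.17 with R, or 2.13-fold and 1.86-fold (adjusted p = 0.0935 and 0.104, respectively), so that only the first was called. With the replicate block both were called (adjusted p = 0.00557 and 0.00771).

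DUSP2 in TMD8 was at 41.4 and 33.7 CPM under isotype, 70.0 and 59.2 CPM under R and 100 and 93.0 CPM under OF. The 3 conditions did not overlap, and OF was the highest. The log2 fold change of DUSP2 was 1.37 ± 0.18 with OF and 0.79 ± 0.18 with R, or 2.59-fold and 1.73-fold (adjusted p = 0.0851 and 0.135, respectively). The replicate block called both (adjusted p = 0.00221 and 0.00965). With the GC correction the OF value was 1.17 and was not called, and without isotype replicate 1 the R value was 0.96 and was called (adjusted p = 0.0870).

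The 2 SPRED genes had higher levels with OF, and the main edgeR fit, without the replicate block, did not call them. SPRED1 (chromosome 15, 38252326 to 38357249, plus strand) was at 7.43 and 10.8 CPM under isotype, 16.8 and 12.9 CPM under R and 21.4 and 23.2 CPM under OF, with no overlap between the conditions. Its log2 fold change was 1.29 ± 0.24 with OF and 0.71 ± 0.24 with R (adjusted p = 0.108 and 0.233, respectively), and with the replicate block the adjusted p was 0.0123 and 0.0728. SPRED2 (chromosome 2, 65310851 to 65432637, minus strand) was at 4.97 and 7.07 CPM under isotype, 9.24 and 6.77 CPM under R and 9.34 and 16.2 CPM under OF. The R libraries overlapped the isotype libraries, and the OF libraries differed widely from each other. The log2 fold change of SPRED2 was 1.09 ± 0.33 with OF (adjusted p = 0.220, and 0.0486 with the replicate block) and 0.41 ± 0.34 with R (adjusted p = 0.589).

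DUSP16 and DUSP10 were lower than isotype on average in TMD8, and neither was called in the main fit. DUSP16 was at 2.91 and 3.87 CPM under isotype, 1.95 and 1.74 CPM under R and 1.72 and 1.87 CPM under OF. The log2 fold changes were −0.88 ± 0.28 with R and −0.92 ± 0.29 with OF (adjusted p = 0.221 and 0.226, respectively). The groups did not overlap, and with the replicate block DUSP16 was called with both (adjusted p = 0.0832 and 0.0831). DUSP10 was at 2.63 and 3.34 CPM under isotype and between 1.74 and 2.61 CPM in the other 4 TMD8 libraries, with log2 fold changes of −0.42 ± 0.31 and −0.46 ± 0.31 (adjusted p = 0.547 and 0.571). DUSP1 and DUSP4 overlapped with isotype under at least one antibody. DUSP1 stayed between 2.19 and 3.57 CPM in the 6 libraries, and DUSP4 was at 6.28 and 9.66 CPM under isotype, 7.41 and 8.20 CPM under R and 9.61 and 10.1 CPM under OF, with log2 fold changes of −0.03 ± 0.25 and 0.30 ± 0.25.

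With the replicate block, 4 members were called with R in TMD8 (3 higher and 1 lower) and 5 with OF (4 higher and 1 lower). The block also took the calls over all genes from 92 to 1565 with R (11.0%) and from 116 to 1387 with OF (9.75%). The 2 OF calls of the unblocked fit were both lost without R replicate 1, R replicate 2, OF replicate 1, OF replicate 2 or isotype replicate 1, where 0, 0, 0, 0 and 6 genes of the whole table were called. The log2 fold changes without single libraries ran from 1.22 to 1.55 for DUSP2 and from 1.03 to 1.16 for DUSP5, and without isotype replicate 2 SPRED1 was called beside them (adjusted p = 0.0527), which made 3. Without the 2 libraries that stood apart, OF and isotype had 1 library each, whose spread was taken from the R pair. In that fit 4 members were called with R, against 13.4% of all genes, and 5 with OF, against 12.4%, and these members were all higher. The log2 fold changes there were 0.91 ± 0.13 with R and 1.03 ± 0.14 with OF for DUSP5, 0.63 ± 0.14 and 1.27 ± 0.15 for DUSP2, 0.99 ± 0.19 and 1.52 ± 0.21 for SPRED1 and 0.67 ± 0.24 and 0.90 ± 0.27 for SPRED2. DUSP4 was the fifth member called with OF, at 0.60 ± 0.26 (adjusted p = 0.0859), and DUSP16 was not called with R or OF, at −0.67 ± 0.39 and −0.77 ± 0.47.

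**Figure D3:**
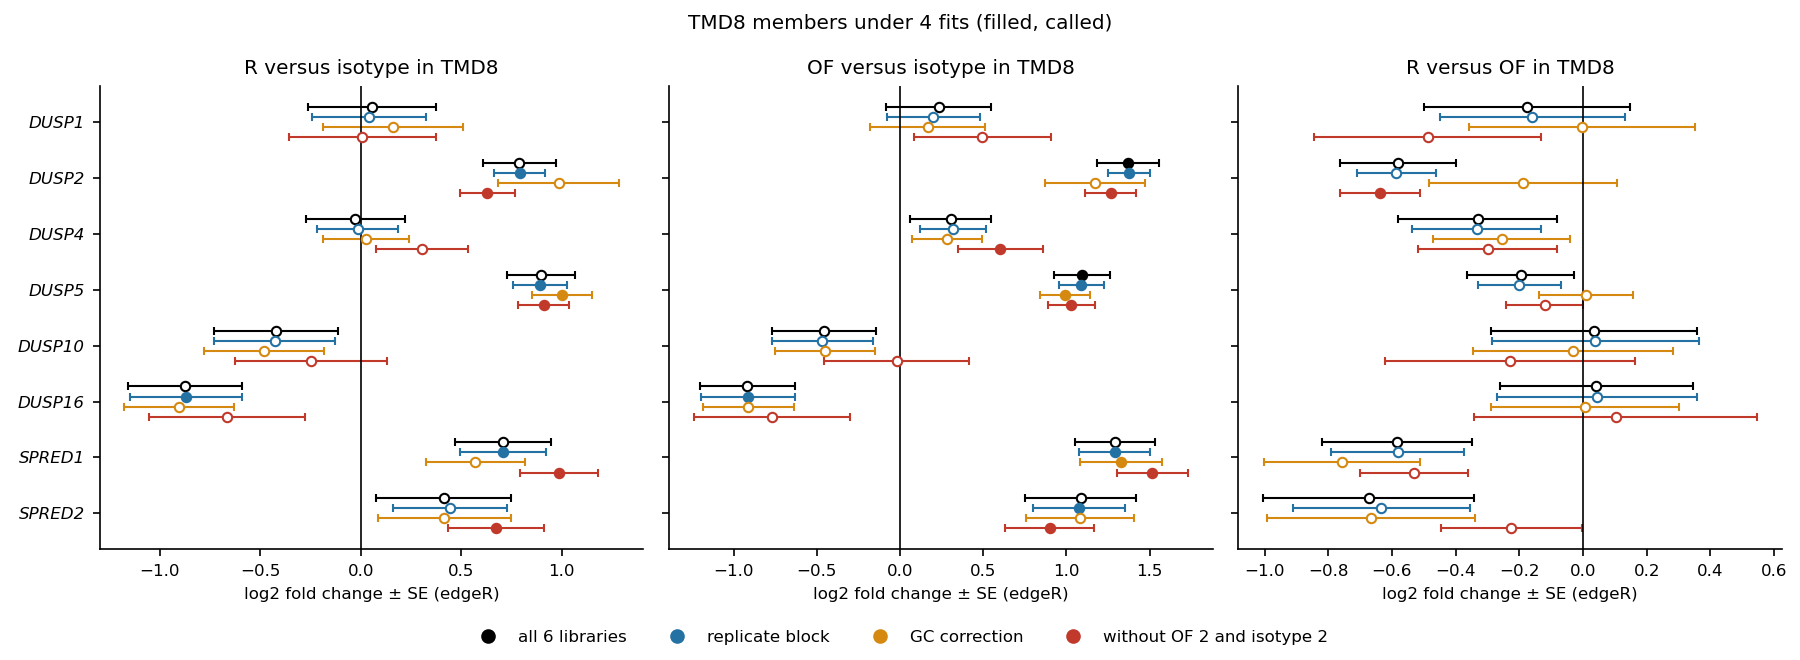
Log2 fold change ± SE (edgeR) of the 8 members tested in TMD8 for R against isotype, OF against isotype and R against OF, under all 6 libraries (black), the replicate block (blue), the GC correction (orange) and without OF replicate 2 and isotype replicate 2 (red); filled symbols are called. DUSP5 stayed near 0.9 to 1.1 against isotype under all 4, whereas DUSP2 between R and OF ran from −0.64 to −0.19.

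The study set R beside OF, which bind different sites on CD20, to compare the transcripts that follow each of them. In U2932, 0 of 9 members were called between R and OF at the study's adjusted p under 0.3 for that comparison, where 0.00683% of all genes (1 gene) were called. By edgeR 0 members had an unadjusted p under 0.05, against 5.10% of all genes, and DESeq2 called 0 members and 0.00683% of all genes. The differences ran from −0.28 ± 0.32 for DUSP4 to 0.12 ± 0.37 for SPRY1 on the log2 scale, R minus OF, and that of DUSP2 was −0.04 ± 0.10.

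In TMD8, 0 of 8 members and 0% of all genes were called between R and OF. The study, which used DESeq2, did report genes that differed between R and OF in this line at an adjusted p limit of 0.1. It also reported many more genes against isotype in TMD8 than the main fit here called. It states no fold limit, and the reason for the departure was not tested. By edgeR 2 members had an unadjusted p under 0.05, against 4.09% of all genes, and DESeq2 called 0 members and 0% of all genes. DUSP2, SPRED1 and SPRED2 were lower with R than with OF, at −0.58 ± 0.18, −0.58 ± 0.24 and −0.67 ± 0.33 on the log2 scale (adjusted p = 0.733 for each). The R and OF libraries of each did not overlap, nor did those of DUSP4, at −0.33 ± 0.25 (adjusted p = 0.733). Without the 2 libraries that stood apart, 0.910% of all genes were called. DUSP2 was among them, at −0.64 ± 0.13 (adjusted p = 0.000203), SPRED1 was at −0.53 ± 0.17 (adjusted p = 0.0634, under 1.5-fold) and SPRED2 at −0.22 ± 0.22 (adjusted p = 0.734). With the GC correction of all 6 libraries DUSP2 was at −0.19 ± 0.30 and SPRED1 at −0.76 ± 0.24 (adjusted p = 0.950 for both). Genes of the highest GC decile had a median 0.64 below that of the lowest decile in this comparison, and transcript GC content was 63.9% for DUSP2 and 38.9% for SPRED1.

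Whether the responses differed between the lines was tested as an interaction over the 12 libraries, with 9 members tested. No member was called for R, against 0.321% of 16187 genes, or for OF, against 0.105%. By edgeR 3 members for R and 6 for OF had an unadjusted p under 0.05, against 11.9% and 8.46% of all genes. Those for R were DUSP1, DUSP5 and SPRY1. SPRY1 passed the filter through U2932 alone. In TMD8 it had 0 counts in both isotype libraries and 1 and 3 counts under R. The SPRY1 result therefore lies at the floor and is not read as a difference in response. DESeq2 called 1 and 2 members, against 2.77% and 1.38% of all genes, and the replicate block called 4.76% and 2.19% of all genes. For DUSP5 the response in U2932 minus that in TMD8 was −0.75 ± 0.20 for R (adjusted p = 0.191) and −0.76 ± 0.20 for OF (adjusted p = 0.251), and with the replicate block it was called for both (adjusted p = 0.0345 and 0.0524). For SPRED2 the difference for OF was −1.30 ± 0.36 (adjusted p = 0.279), and it was called with the block (adjusted p = 0.0677) and without TMD8 isotype replicate 2 (adjusted p = 0.0887). For DUSP1 it was −0.97 ± 0.40 for R and −1.03 ± 0.40 for OF (adjusted p = 0.375 and 0.502), and for DUSP16 −0.58 ± 0.34 and −0.47 ± 0.34 (adjusted p = 0.528 and 0.798). Without the 2 TMD8 libraries that stood apart, the share of all genes called was 9.63% for R and 4.21% for OF. In that fit DUSP4, DUSP5 and SPRED2 were called for R, and DUSP1, DUSP4, DUSP5, DUSP6, SPRED1 and SPRED2 for OF. DUSP6 was tested in none of the main fits. It has 0 counts in the 1 isotype library of TMD8 left in that fit and 8 in the 1 OF library, so its call lies at the floor and is not read as a response.

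Under isotype, before any anti-CD20 antibody, 8 members that were tested within both lines were all called between them. This stands beside 56.1% of all genes called between the lines, 28.1% higher and 28.0% lower in U2932. The lower ones in U2932 were DUSP5, with a log2 difference of −3.41 ± 0.15 (10.6-fold, adjusted p = 9.3e-09), SPRED1, with −1.86 ± 0.24 (3.63-fold, adjusted p = 4.4e-05), and DUSP4, with −1.57 ± 0.26 (2.97-fold, adjusted p = 0.000314). The higher ones were DUSP10, by 3.02 ± 0.20 (8.11-fold, adjusted p = 1.9e-07), DUSP1, by 1.51 ± 0.27 (adjusted p = 0.000551), SPRED2, by 1.31 ± 0.26 (adjusted p = 0.000981), DUSP16, by 0.85 ± 0.21 (adjusted p = 0.00494), and DUSP2, by 0.74 ± 0.16 (adjusted p = 0.0017). Without U2932 isotype replicate 1 the value of DUSP2 was 0.57 (adjusted p = 0.0222), under 1.5-fold. Without the 2 TMD8 libraries that stood apart, the same 8 members were called in the same directions, from −3.38 ± 0.13 for DUSP5 to 3.22 ± 0.22 for DUSP10, against 55.1% of all genes. SPRY1 passed the filter through U2932 alone, where it had 22 and 24 counts, and had 0 in both TMD8 libraries, so its call is not counted here. Against a floor of 3 counts over the TMD8 group it was at least 15.5-fold higher in U2932, a bound that covers counting error only. Each line is a single line, so these values describe U2932 and TMD8 and no wider class of lymphoma, and in bulk RNA a lower level in each cell and fewer cells with the transcript cannot be told apart.

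Around the members, 4 lists of related genes were counted in the same fits, whose shares over all genes in U2932 were 10.2% with R and 11.1% with OF. Of 10 tested relatives in the DUSP, SPRED and SPRY families, 1 rose and 1 fell with R in U2932 and 1 rose with OF. None was called in the main fit of TMD8. DUSP3, an atypical phosphatase of ERK and JNK, was at 2.37 and 3.16 CPM under isotype and between 4.14 and 4.60 CPM under R and OF in U2932, with log2 fold changes of 0.72 ± 0.21 and 0.65 ± 0.22 and adjusted p = 0.0132 and 0.0251. DUSP8, which acts on JNK and p38, was the gene that fell. It was at 0.985 and 0.877 CPM under isotype and 0.337 and 0.159 CPM under R, a log2 fold change of −1.89 ± 0.55 (adjusted p = 0.0107). These are 22 and 20 counts under isotype and 6 and 3 under R, with 6 and 11 under OF. DUSP8 passed the filter on low counts only because its isotype libraries were high, so the filter favoured a fall and the call is not read as a response. The median log2 fold change of these relatives was −0.12 with R and 0.03 with OF in U2932, and −0.04 and −0.11 in TMD8. Without the 2 TMD8 libraries that stood apart, the medians in TMD8 were 0.09 with R and 0.01 with OF, beside −0.002 and −0.01 over all genes. In that fit DUSP7 was at 0.81 with R and 1.12 with OF, while DUSP19 was at −0.72 and −0.59. Over all TMD8 libraries DUSP7 was at 6.23 and 8.10 CPM under isotype and between 10.8 and 15.6 CPM under R and OF.

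Of 22 RAS, RAF, MEK and ERK genes, 2 fell with R and 1 with OF in U2932, and none rose, beside 10.2% and 11.1% of all genes called. NF1 encodes neurofibromin, the RAS GTPase-activating protein that SPRED1 recruits. It was at 63.8 and 76.8 CPM under isotype, 41.4 and 33.2 CPM under R and 31.9 and 39.8 CPM under OF in U2932. NF1 fell by 0.92 ± 0.12 and 0.97 ± 0.12 on the log2 scale (adjusted p = 2.8e-06 and 1.45e-06). KSR1, a scaffold of RAF and MEK, fell by 0.63 ± 0.24 with R (adjusted p = 0.0503). Of 20 JNK and p38 kinase genes, 1 was called with R and 2 with OF, beside the same shares of all genes. MAP2K6, a kinase of p38, rose by 0.70 ± 0.14 with R and by 0.73 ± 0.14 with OF (adjusted p = 0.000396 and 0.000259, respectively), MAP2K3, a second p38 kinase, rose by 0.60 ± 0.10 with OF (adjusted p = 6.0e-05), and none fell. No gene of these 2 lists was called in the main fit of TMD8. Without the 2 TMD8 libraries that stood apart, the median of the 22 RAS, RAF, MEK and ERK genes was 0.21 with R and 0.04 with OF. That of the 20 JNK and p38 kinase genes was 0.09 and 0.08. Single genes moved in both directions in that fit. SOS2 was at 0.89 with R and 0.61 with OF, and RRAS2 at −0.68 and −0.74. MAP2K3 was at 0.24 and 0.65, and MAP3K1 at −0.30 and −0.88.

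Of 22 tested transcripts known to respond to ERK, 1 rose and 3 fell with R in U2932, and 2 rose and 1 fell with OF. JUN, a component of AP-1, was at 15.3 and 14.3 CPM under isotype and between 3.14 and 5.08 CPM in the 4 anti-CD20 libraries. It fell by 1.96 ± 0.18 with R and by 1.78 ± 0.18 with OF (adjusted p = 9.2e-09 and 4.5e-08, respectively). JUND fell by 0.62 ± 0.10 (adjusted p = 2.2e-05) and EGR3 by 0.70 ± 0.16 (adjusted p = 0.00198) with R. ETV5, an ETS factor, rose by 0.61 ± 0.26 with R and by 0.74 ± 0.26 with OF (adjusted p = 0.0838 and 0.0343, respectively), and MYC rose by 0.71 ± 0.15 with OF (adjusted p = 0.000546). In the main fit of TMD8, MYC was the one gene of this list called, with OF. It was at 130 and 147 CPM under isotype and 311 and 320 CPM under OF (1.19 ± 0.16, adjusted p = 0.0851). The median log2 fold change of the list in TMD8 was 0.14 with R and 0.52 with OF. Without the 2 libraries that stood apart, the medians were 0.34 with R and 0.63 with OF. MYC was at 0.94 ± 0.13 with R and 1.25 ± 0.14 with OF in that fit. Other genes of the list rose there too, as some members did. EGR1 was at 0.29 with R and 1.15 with OF, IER2 at 0.84 and 1.27, and ETV5 at 0.85 and 1.73. JUN and IER5 lay the other way, at −0.66 and −0.35 and at −0.72 and −0.33.

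**Figure D4:**
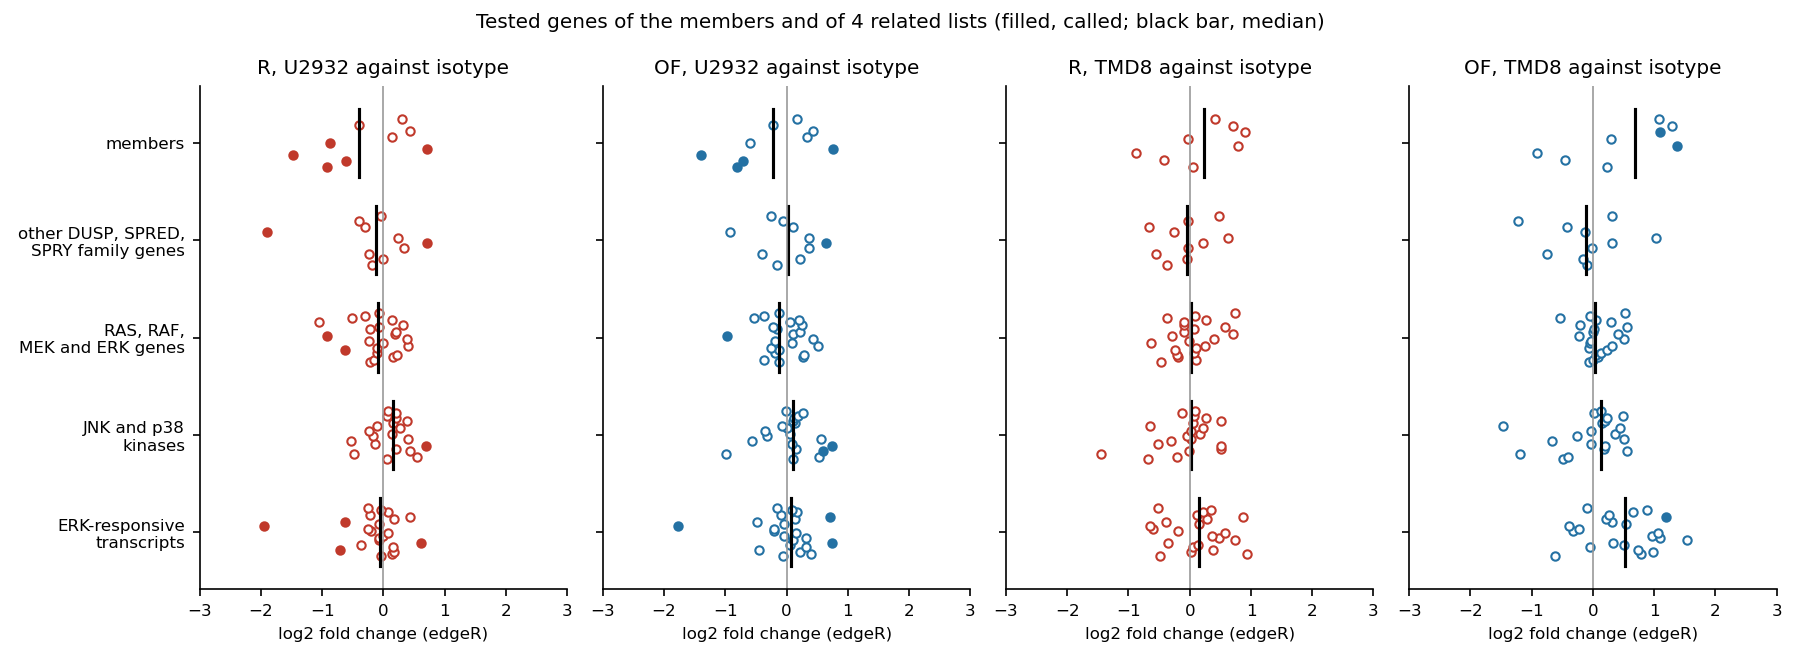
Log2 fold change against isotype (edgeR) of every tested member and every tested gene of 4 related lists, for R and OF in each line; filled points are called and black bars are list medians. The members' median lay at −0.39 and −0.22 in U2932 and at 0.23 and 0.69 in TMD8, and JUN lay farthest left among the ERK-responsive transcripts in U2932, at −1.96 and −1.78.

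Genes with the pattern most like DUSP2 and DUSP16, the members with the smallest adjusted p against isotype, were sought by the root-mean-square difference in log2 CPM over the 12 libraries after subtraction of each line's mean. For DUSP2 they were PTPN6, which encodes the phosphatase SHP-1 (0.160), SDF2L1, an endoplasmic reticulum protein (0.161), and UBL4A (0.165), where the median over 16187 genes was 0.554. For DUSP16 they were the histone gene H2BC21 (0.110), TIPARP, a target of the aryl hydrocarbon receptor (0.131), and the histone pseudogene H2BC19P (0.169), where the median was 0.610. H2BC21 and H2BC19P have close copies among the histone genes, so reads assigned to them are uncertain.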

How the data were processed

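Total RNA of each culture was sequenced. Reads were trimmed (Trim Galore 0.6.0) and aligned (STAR 2.7.0e) by the authors. The deposited file holds raw counts per Ensembl gene, with no normalization, and the submitters' notes name GRCh38. Whether counting used the strand is not given in the sources used here. Annotated genes overlapping a member had at most 6 counts in a library.

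The members and the gene lists were chosen with earlier results of these data known. Counts were fitted in R 4.3.3 with edgeR 4.0.16 (TMM, filterByExpr with at least 10 counts, quasi-likelihood test), in the 6 libraries of each line, and in all 12 for differences between lines. The text names all members, list genes called against isotype (at most 6 per list), and the 3 genes most like each of 2 members. A few more list genes are named with their TMD8 values without the 2 libraries that stood apart, and were chosen after seeing the data. RPKM used the longest transcript in GENCODE 29. The pairing of same-numbered replicates comes from the labels, which describe 2 cultures per line split before treatment. In TMD8 their deviations correlated at 0.687 between OF and isotype, 0.222 between R and OF and 0.227 between R and isotype. OF and isotype are the conditions whose replicate 2 libraries stood apart, and what made their value higher was not tested. In U2932 the correlations were −0.05 to 0.10. Alternatives were DESeq2 1.42.0, other scalings and filters, a replicate block, a lowess correction for GC content (span 0.3), other limits and leaving out libraries. The steps were tested on simulated counts with independent libraries and the same spread for all genes. Those tests do not cover paired cultures or libraries that stand apart, as in TMD8.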

Additional observations from a re-analysis of the deposited data

How the results depend on the processing

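With 2 libraries per condition the spread is poorly known, and leaving out a library moved the counts of called members from 5 to between 3 and 5 for R against isotype in U2932, from 0 to between 0 and 1 and from 2 to between 0 and 3 for R and OF in TMD8, and from 0 to between 0 and 1 for the OF interaction. The 3 for U2932 came without isotype replicate 2, which took DUSP2 and DUSP10 under 1.5-fold. For R in TMD8 the count of 0 became 2 with DESeq2 and with no filter, 4 with the replicate block, 1 with the GC content correction, 3 with both, 5 with all 12 libraries in one fit (1 of them SPRY1, at 0 to 3 counts) and 4 without both libraries that stood apart, an alternative chosen after seeing the data. For OF in TMD8 the count of 2 became 4 with DESeq2 and with no filter, 1 with library size only, 5 with the replicate block, with and without GC correction, with all 12 libraries and without both libraries, and 0 at an adjusted p under 0.05. For R against OF in TMD8 the count of 0 became 1 without both libraries. The R interaction count of 0 became 1 with DESeq2 and with the replicate block, with and without GC correction, and 3 without both libraries. The OF interaction count of 0 became 2 with DESeq2 and with the replicate block, 1 with no filter, 3 with the block and GC correction, and 6 without both libraries. The last of these counts includes DUSP6, which had 0 to 13 counts per library. The cause of these moves was not tested. The other 3 counts stayed within 1.5 times under the alternatives run, and the block changed no call in U2932 other than that of DUSP4 with OF.

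Over all genes, calls for R in U2932 went from 1494 to 5005 without the fold limit and to 800 with all 12 libraries, and for OF from 1625 to 5334 and 904. For R in TMD8 they went from 92 to 702 with DESeq2 and 450 with the GC correction, and for OF from 116 to 590 and 416. With no filter they were 1093 for R and 908 for OF, of 26975 genes. With the block and GC correction they were 1405 and 1374, and with all 12 libraries 1359 and 1170. At an adjusted p under 0.05 OF gave 0. The R interaction went from 52 to 412 with the block and GC correction. The OF interaction went from 17 to 404 in that fit and to 171 with no filter. Library size only gave 66 for R and 25 for OF in TMD8. That scaling moved the median of all genes to −0.16 for R in TMD8 and to 0.11 between the lines.

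Signs turned only for values near 0 or with a large SE, none of them called. With library size only, DUSP1 with R in TMD8 was at −0.080, SPRED1 between R and OF in U2932 at −0.012, and DUSP10 and DUSP16 between R and OF in TMD8 at −0.019 and −0.027. With the GC correction, without and with the replicate block, DUSP4 with R in TMD8 was at 0.027 and 0.033, DUSP2 and SPRED1 between R and OF in U2932 at 0.085 and 0.083 and at −0.035 and −0.038, and DUSP5 and DUSP10 between R and OF in TMD8 at 0.0086 and 0.0093 and at −0.032 and −0.032. DUSP1 there was at 0.023 with both. Without both libraries, DUSP4 with R in TMD8 was at 0.30, DUSP10 between R and OF in TMD8 at −0.23 and the R interaction of DUSP2 at 0.072. Leaving out single libraries gave −0.084 to 0.39 for SPRY1 with OF in U2932, −0.014 to 0.14 and −0.17 to 0.56 for DUSP1 with R and OF in TMD8, and −0.28 to 0.31 for DUSP4 with R in TMD8. Between R and OF in U2932 the ranges were −0.34 to 0.15 (DUSP1), −0.13 to 0.038 (DUSP2), −0.73 to 0.051 (DUSP4), −0.0065 to 0.21 (DUSP10), −0.23 to 0.072 (DUSP16), −0.12 to 0.15 (SPRED1) and −0.10 to 0.38 (SPRY1). In TMD8 they were −0.49 to 0.23 (DUSP1), −0.24 to 0.37 (DUSP10) and −0.045 to 0.13 (DUSP16). The interaction ranged from −0.23 to 0.10 for DUSP2 with R and from −0.50 to 0.075 for DUSP10 with OF.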
